A study of Mus musculus with 2 samples.

Results

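Tight junction, desmosome and simple epithelial genes were examined in mouse 46C embryonic stem cells at day 5 of neural differentiation. The members are all non-control array probes named for a claudin, a ZO scaffold, Ocln, Marveld2, Marveld3, Epcam, a desmoglein, a desmocollin, Dsp, a plakophilin, Krt7, Krt8, Krt18, Krt19 or Krt23. They came to 74 probes for 49 genes, of 33008 named genes on the array. There were 2 groups of 1 one-colour array each: 46C cells labelled KO-Linc1548, a knockout of a long intergenic non-coding RNA, and 46C cells labelled WT. 46C is a stem cell line with a GFP reporter at the Sox1 locus, so both groups carry that allele. Cells of both groups grew as floating aggregates in a medium with serum replacement, and total RNA was labelled with Cy3. Whether the knockout line is 1 clone is not given in the sources used here. With 1 array per group no difference has a replicate check, no test was run, and each difference compares these 2 arrays.

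Tight junctions seal the space between neighbouring epithelial cells: claudins form the strands, occludin and the other MARVEL-domain proteins join them, and the ZO scaffolds encoded by Tjp genes tie them to actin. Desmosomes are spot junctions in which desmoglein and desmocollin cadherins bind, through plakophilins and desmoplakin, to keratin filaments. Embryonic stem cells and the epiblast are epithelial and carry E-cadherin, EpCAM and claudins; the neural plate gives up occludin and E-cadherin as it turns to neuroepithelium. KRT8 and KRT18 pair into the first keratin filaments of the embryo.

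Epcam and 9 of the 18 measured tight junction genes were higher in the knockout by 2-fold or more, whereas Krt8, Cldn1 and Cldn10 were lower by that margin. A probe was called measured when it lay well above background on both arrays, and a gene took the median log2 difference, KO-Linc1548 minus WT, of its measured probes. Of the 49 genes, 30 were measured on both arrays, 2 lay well above background on the knockout array alone, 3 on the wild type array alone and 14 on neither. Among the 30, 12 (40.0%) passed a fixed 2-fold limit upward in the knockout, 3 (10.0%) passed it downward and 15 stayed within it. For all 18690 genes with a value from each array, 11.5% passed the limit upward and 8.81% downward, 20.3% in all. The member median was 0.61 on the log2 scale, against 0.10 for all measured genes. When the arrays were centred on spike-in controls, which moved every difference by −0.38, the members split into 4 higher and 5 lower, beside 7.49% and 15.8% of all genes.

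**Figure D1:**
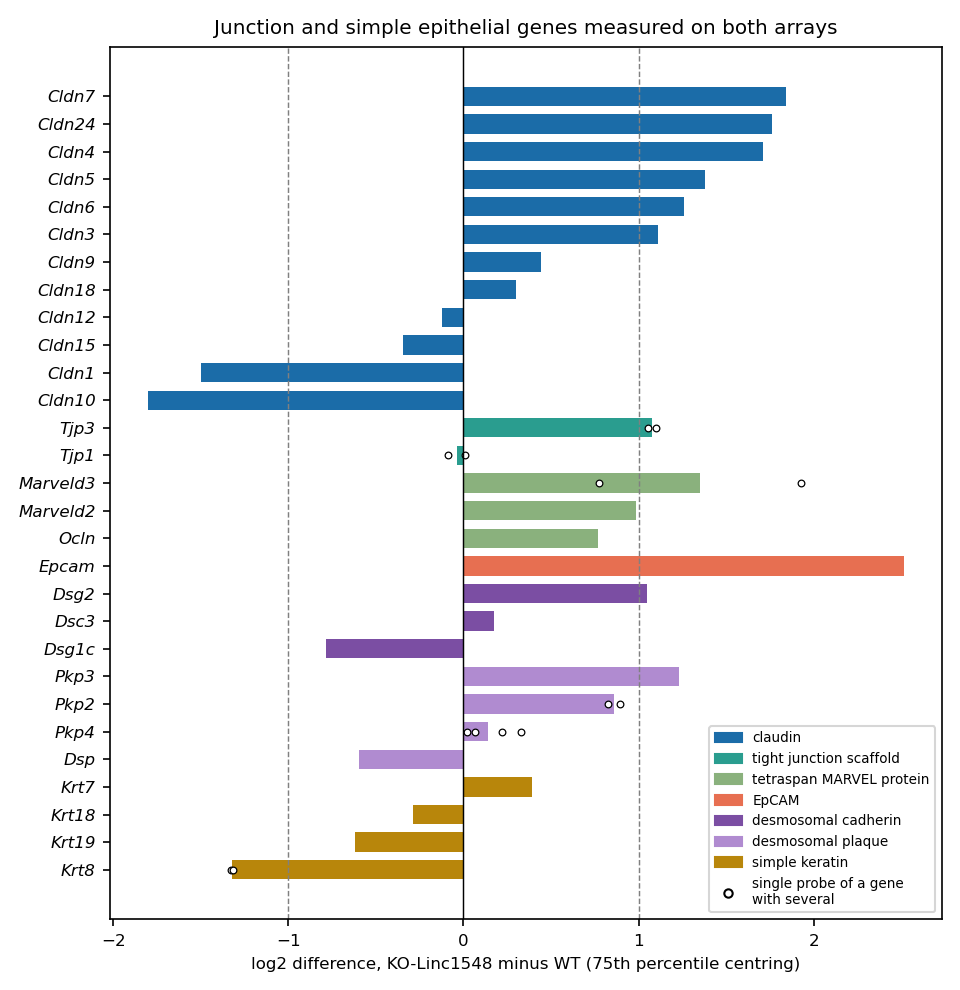
Log2 difference, KO-Linc1548 minus WT, of member genes measured on both arrays (bars, coloured by class; circles, single probes of genes with several; dashed lines, 2-fold). Epcam reached 2.52 and the largest claudin differences lay on both sides of 0, from 1.84 for Cldn7 to −1.80 for Cldn10.

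Of the 56589 probes with usable spots, 58.5% lay well above background on the knockout array and 61.4% on the wild type array, and none was saturated. Normalized signal is the processed signal scaled to a common 75th percentile, in arbitrary units. The lowest normalized signal called well above background was 30.5 on the knockout array and 21.3 on the wild type array. Spots of the same probe differed with an SD of 0.070 (log2) on the knockout array and 0.065 on the wild type array; this is error within an array only. No probe carried the name Linc1548 (0 probes), so the labels were not checked against the targeted RNA. All 12 neural progenitor genes on the list were measured, and 10 passed the limit downward in the knockout and 0 upward (median −2.50). This compares the arrays with each other and does not check the day 5 culture label, which both share. In RNA from whole cultures, fewer cells of a type and less RNA per cell cannot be told apart.

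Epcam showed the largest difference among the members measured on both arrays. It encodes a cell adhesion protein of simple epithelia and stem cells that stabilises claudins. Its probe read 2696 in the knockout, against 471 in the wild type, a log2 difference of 2.52 (5.72-fold), which was above the differences of 97.6% of all measured genes. The probe is 60 bases long and its target on chromosome 17, positions 88048972 to 88049800 (mouse build mm9), spans 829 bases of genome, so it crosses an intron. Over 8 alternative processing settings the Epcam difference ran from 2.13 to 2.53.

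Claudins split into a larger group that was higher and a smaller one that was lower. Of 23 claudin genes, 12 were measured on both arrays; 6 passed the limit upward in the knockout, 2 downward and 4 stayed within it (median 0.78). Cldn7, a partner of EpCAM at epithelial cell borders, read 3702 in the knockout, against 1033 in the wild type (log2 1.84); its probe lies on chromosome 11 at 69781255 to 69781314 (mm9). A further Cldn7 probe, made to an Ensembl transcript, was well above background on neither array. Cldn4, a barrier claudin of many epithelia, read 189 in the knockout, against 57.7 in the wild type (log2 1.71).

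Cldn6, a claudin of embryonic epithelia and pluripotent cells, read 1889 in the knockout, against 789 in the wild type (log2 1.26, or 0.88 with spike-in centring). Cldn3, a sealing claudin, read 1934 in the knockout, against 896 in the wild type (log2 1.11, or 0.73 with spike-in centring and 0.998 with normexp). Cldn3 and Cldn4 are neighbours on chromosome 5, their probes 41.1 kb apart, and both were higher; the Cldn13 probe of the same stretch was well above background on neither array. Cldn6 and Cldn9, whose probes lie 1.1 kb apart on chromosome 17, differed in size: Cldn9 read 243 in the knockout, against 179 in the wild type (log2 0.44), within 2-fold.

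Cldn5 is the main claudin of endothelium and is also found elsewhere. It read 1252 in the knockout, against 481 in the wild type (log2 1.38, or 0.99 with spike-in centring). Beside it, 8 of 12 endothelial markers were measured on both arrays, with 3 past the limit upward and 1 downward (median 0.90). Summed signals take every gene of a list, detected or not, with its probes averaged as log2 values. For all 12 the sum was 21737 in the knockout, against 9004 in the wild type. Most of that sum was Egfl7, at 20796 in the knockout against 8235 in the wild type. The endothelial cadherin Cdh5 exceeded background only in the wild type (24.2 in the knockout, against 37.8 in the wild type), and Erg and Tie1 on neither array. The part of endothelial cells in the Cldn5 difference was not tested.

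The Cldn24 value is uncertain. Its measured probe read 276 in the knockout, against 81.5 in the wild type (log2 1.76), but that probe was made to a cDNA clone and lies 8587 bases from the probe of the RefSeq transcript, while the RefSeq gene is 663 bases long. The RefSeq transcript probe was well above background on neither array, and neither was the Cldn22 probe, which lies between the 2 Cldn24 probes on chromosome 8. Without Cldn24, 11 members passed the limit upward.

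The claudins that were lower were faint, and so was Cldn4 among the higher ones, at 57.7 in the wild type. Cldn10, an ion-pore claudin, read 35.7 in the knockout, against 124 in the wild type (log2 −1.80, 3.48-fold lower), with the knockout signal close to the background limit. Cldn1, the claudin of the skin barrier, read 95.8 in the knockout, against 271 in the wild type (log2 −1.501, 2.83-fold lower). With normexp background correction both came within 2-fold, at −0.83 for Cldn10 and −0.96 for Cldn1. Cldn11, a claudin of myelin and the testis, exceeded background only in the wild type, at 25.6 in the knockout against 109 in the wild type, at least 3.57-fold lower. Such a bound sets the signal on the brighter array against the higher of 2 values on the other array. These are the lowest normalized signal called well above background there and the probe's own signal. A probe can lie above that lowest signal and not be called, as Cldn20 did in the knockout at 34.7. The bounds are therefore approximate.

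The claudins within 2-fold were Cldn9, Cldn18 (log2 0.30), Cldn12 (−0.12) and Cldn15 (−0.34), of which Cldn12, a broadly expressed claudin, read 5477 in the knockout, against 5969 in the wild type. Cldn18 and Cldn15 read under 50 on both arrays. Cldn2, a pore-forming claudin, was well above background on the knockout array alone through 1 of its 2 probes, at 46.4 in the knockout against 11.4 in the wild type, at least 2.18-fold higher. Cldn23 exceeded background only in the wild type; its bound, at least 1.33-fold lower in the knockout, falls short of 2-fold. Cldn20 was also called only there, at 34.7 in the knockout against 30.2 in the wild type, and no fold is given. The other 7 claudins, Cldn8, Cldn13, Cldn14, Cldn16, Cldn17, Cldn19 and Cldn22, were well above background on neither array.

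**Figure D2:**
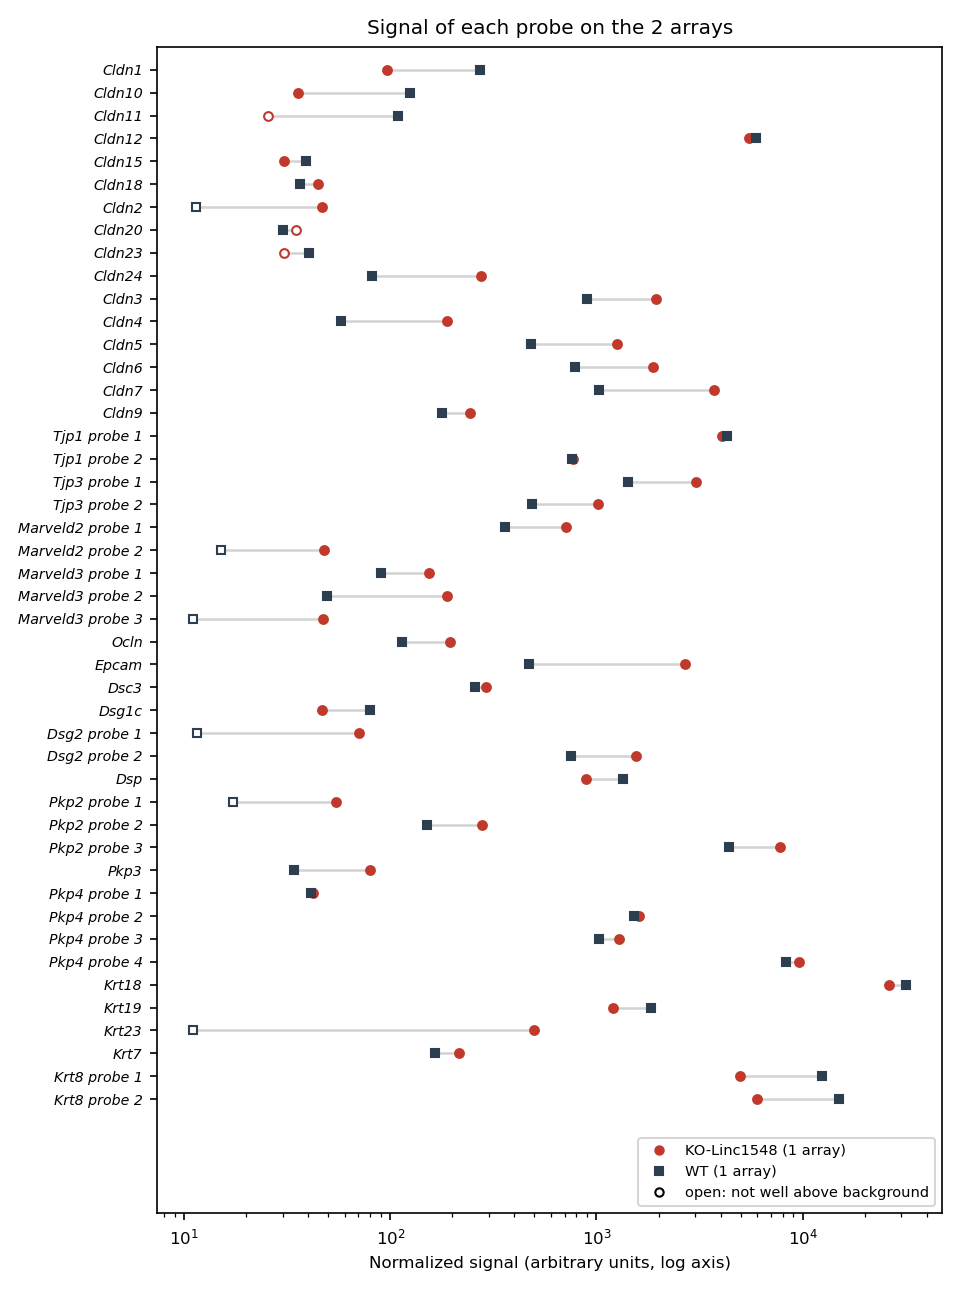
Normalized signal (log axis) of member probes well above background on at least 1 array; circles, KO-Linc1548, and squares, WT, 1 array each, open where not well above background. Krt23 shows the widest gap, 495 in the knockout against 11.01 in the wild type, while both Tjp1 probes and the 4 Pkp4 probes lie nearly level.

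Among the ZO scaffolds, Tjp3 was higher and Tjp1 was level. Tjp3 (ZO-3), a scaffold found in epithelia, read 3030 and 1015 with its 2 probes in the knockout, against 1415 and 489 in the wild type, differences of 1.098 and 1.055 with a median of 1.08. Both probes went the same way and past 2-fold, yet with spike-in centring the gene value was 0.69. Tjp1 (ZO-1), which neuroepithelial cells also use at their apical junctions, read 4049 and 767 in the knockout, against 4304 and 761 in the wild type (median −0.04, or −0.42 with spike-in centring).

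All 3 MARVEL-domain genes were higher, 1 of them past 2-fold. Marveld3 read 153 and 188 with its 2 measured probes in the knockout, against 89.8 and 49.5 in the wild type; the differences, 0.77 and 1.93, were the only probe pair among members to span over 1. Its median of 1.35 came within 2-fold under 4 of 8 alternatives, the brightest probe (0.77) and spike-in centring (0.96) among them. Marveld2 (tricellulin), which marks the corners where cells meet, read 715 in the knockout, against 361 in the wild type (log2 0.99), just short of 2-fold, and passed it with cyclic loess (1.01) and without the filter on dim probes (1.32). Ocln (occludin) read 194 in the knockout, against 114 in the wild type (log2 0.77). A further probe of Marveld2 and of Marveld3 was well above background on the knockout array alone, at least 2.23-fold and 2.20-fold higher.

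In the desmosome, 7 of 14 genes were measured on both arrays, with 2 past the limit upward in the knockout and 0 downward (median 0.17). Dsg2, the desmoglein of simple epithelia, read 1558 in the knockout, against 754 in the wild type (log2 1.05, or 0.66 with spike-in centring and 0.99 with normexp). A further Dsg2 probe, at 70.8 in the knockout against 11.6 in the wild type, was at least 3.32-fold higher, and the remaining Dsg2 probe was well above background on neither array. Dsc3, a desmocollin of stratified epithelia, read 292 in the knockout, against 259 in the wild type (log2 0.17, or −0.21 with spike-in centring), with 1 of its 3 probes; the other 2 were well above background on neither array. The 1 measured Dsg1c probe of 2 read 46.3 in the knockout, against 79.9 in the wild type (log2 −0.79); the array design also lists a Dsg1b transcript for it, so those paralogs cannot be told apart.

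Most other desmosomal cadherins were not detected. Dsg1a, Dsg1b, Dsg3, Dsg4 and Dsc1 were well above background on neither array, and neither was Dsc2, the desmocollin of simple epithelia, which has 1 probe here. Dsg and Dsc genes form a cluster on mouse chromosome 18, where the Dsg3 probes, the nearest to those of Dsg2, lie 33.8 kb away.

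The desmosomal plaque genes were mixed. Pkp3, a plakophilin of most epithelia, read 79.8 in the knockout, against 34.0 in the wild type (log2 1.23, or 0.73 with normexp and 0.85 with spike-in centring). Pkp2, the plakophilin of simple epithelia and heart, read 7755 and 280 with its 2 measured probes in the knockout, against 4375 and 150 in the wild type (median 0.86). A further Pkp2 probe was well above background on the knockout array alone, at least 2.55-fold higher. Pkp4, which also binds classical cadherins, was level over 4 probes, with differences from 0.02 to 0.33. Dsp (desmoplakin), the link to keratin filaments, went the other way within 2-fold, at 893 in the knockout against 1351 in the wild type (log2 −0.60), and Pkp1, a plakophilin of skin, was well above background on neither array.

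Of the 5 simple keratins, 1 (Krt8) passed the limit downward, 3 stayed within it, and Krt23 was well above background on the knockout array alone. Krt8 read 4946 and 6041 with its 2 probes in the knockout, against 12419 and 15049 in the wild type, differences of −1.33 and −1.32 (2.50-fold lower). Its partner Krt18, whose probe lies 35.1 kb from those of Krt8 on chromosome 15, read 26134 in the knockout, against 31885 in the wild type (log2 −0.29). Krt19, a type I keratin of simple epithelia, read 1200 in the knockout, against 1840 in the wild type (log2 −0.62, and −1.001 under spike-in centring, which passes the limit). Krt7, a type II keratin of ducts and glands, read 215 in the knockout, against 164 in the wild type (log2 0.39). The Krt8 difference stayed past 2-fold under all 8 alternatives, from −1.71 to −1.32. The 2 Krt8 probes lie next to each other on chromosome 15, from 101827138 to 101827273 (mm9), and so read the same part of the transcript.

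Krt23, a type I keratin, read 495 in the knockout, against 11.01 in the wild type, where it was not well above background, and was at least 23.3-fold higher. Its probe lies on chromosome 11 at 99339393 to 99339452 (mm9). Over all named genes, 2.89% were well above background on the knockout array alone and 4.83% on the wild type array alone.

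Of the 15 members past 2-fold, 5 stayed past it under every alternative that measured them: Epcam, Cldn7, Cldn24, Cldn4 and Krt8. A stricter filter, a processed signal of at least 100 on both arrays, left out Cldn24 and Cldn4. With normexp these fell to 1.27 for Cldn24 and 1.15 for Cldn4. None of the 15 changed sign. Cldn7 had its smallest value, 1.01, without the filter on dim probes, where its undetected probe entered the median. The differences nearest to the limit were those of Dsg2 (1.05) and Tjp3 (1.08) just past it and Marveld2 (0.99) just short of it.

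**Figure D3:**
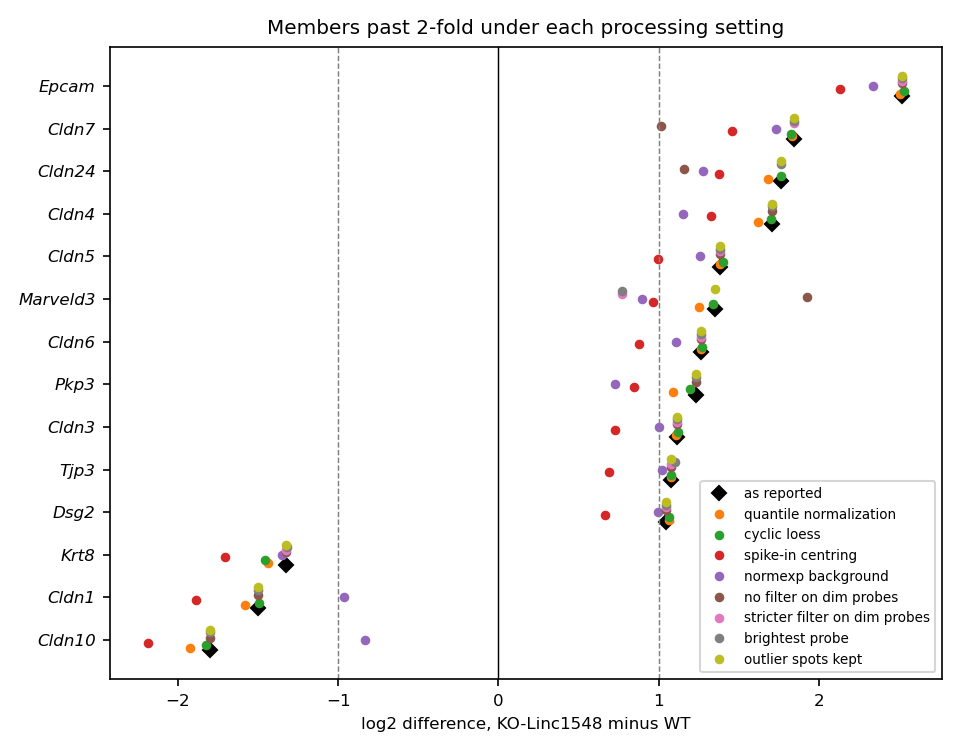
Log2 difference, KO-Linc1548 minus WT, of members past 2-fold, as reported (diamonds) and under each alternative setting (circles); dashed lines mark 2-fold. Spike-in centring puts Cldn3, Cldn5, Cldn6, Tjp3, Dsg2, Pkp3 and Marveld3 under the limit. Normexp puts Cldn1 and Cldn10 there, and Cldn3, Dsg2, Pkp3 and Marveld3 as well.

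Sequence upstream of the transcription start was available from RefSeq (build GRCm38.p6) for 21 of the members measured on both arrays. Windows of 250 bases were searched on both strands for CAGGTG, the E-box that Snail and ZEB repressors bind, for AACCNGTT, a Grainyhead-type site, and for the GC box (GGGCGGG), the CCAAT box and the TATA box (TATAAA). The E-box was found for 4 of 8 genes past the limit upward, 2 of 10 within it and 1 of 3 past it downward, against 17.1% of 27025 genes with a window. The AACCNGTT letters were found in Cldn5 alone, against 1.71% of all genes. The GC box was found for 1 of 8 higher genes, 7 of 10 within 2-fold and 0 of 3 lower, against 23.6%. The CCAAT letters were found for 3 of 8 higher genes, 1 of 10 within 2-fold and 1 of 3 lower, against 34.5%, and the TATA letters for 0 of 8, 1 of 10 and 0 of 3, against 13.0%. Windows are shown for the 4 higher genes with an E-box, for Cldn7, which has none, and for Krt8, 5′ to 3′, with the E-box in capitals.
Epcam (chr17:87635729-87635978, plus strand): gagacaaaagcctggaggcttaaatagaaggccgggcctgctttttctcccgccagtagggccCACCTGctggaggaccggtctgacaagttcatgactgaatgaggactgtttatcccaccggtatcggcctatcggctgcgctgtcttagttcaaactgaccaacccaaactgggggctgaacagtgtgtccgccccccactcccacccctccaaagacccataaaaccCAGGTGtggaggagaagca
Cldn4 (chr5:134946935-134947184, minus strand): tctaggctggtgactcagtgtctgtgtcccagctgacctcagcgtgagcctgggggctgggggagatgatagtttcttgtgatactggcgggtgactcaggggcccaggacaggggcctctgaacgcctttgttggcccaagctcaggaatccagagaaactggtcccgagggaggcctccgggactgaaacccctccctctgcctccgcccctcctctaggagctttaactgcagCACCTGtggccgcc
Cldn6 (chr17:23679115-23679364, plus strand): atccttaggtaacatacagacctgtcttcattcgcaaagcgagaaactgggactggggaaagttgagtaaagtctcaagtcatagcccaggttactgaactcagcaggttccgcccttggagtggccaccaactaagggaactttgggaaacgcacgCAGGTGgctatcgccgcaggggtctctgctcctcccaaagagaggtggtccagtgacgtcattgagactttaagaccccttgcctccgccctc
Tjp3 (chr10:81291582-81291831, minus strand): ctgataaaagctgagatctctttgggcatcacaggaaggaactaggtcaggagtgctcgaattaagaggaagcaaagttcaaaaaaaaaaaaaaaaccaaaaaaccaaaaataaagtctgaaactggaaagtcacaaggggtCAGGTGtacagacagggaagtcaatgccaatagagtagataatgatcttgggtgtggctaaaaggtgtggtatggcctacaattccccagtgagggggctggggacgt
Cldn7 (chr11:69964529-69964778, plus strand): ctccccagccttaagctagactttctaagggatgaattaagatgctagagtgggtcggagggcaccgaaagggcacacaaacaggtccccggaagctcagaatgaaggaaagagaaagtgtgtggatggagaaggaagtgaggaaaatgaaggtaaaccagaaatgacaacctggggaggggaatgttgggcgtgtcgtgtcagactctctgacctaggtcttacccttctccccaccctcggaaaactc
Krt8 (chr15:102004343-102004592, minus strand): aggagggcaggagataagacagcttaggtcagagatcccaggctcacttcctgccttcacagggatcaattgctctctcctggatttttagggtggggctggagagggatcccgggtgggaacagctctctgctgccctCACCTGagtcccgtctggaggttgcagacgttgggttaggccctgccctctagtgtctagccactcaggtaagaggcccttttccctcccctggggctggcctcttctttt
Epcam carried 2 such E-boxes and the others with capitals 1 each. These matches describe letters in the windows, and no binding was measured here.

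Other junction and polarity genes, from a list outside the members, moved both ways. All 36 were measured; 11 passed the limit upward in the knockout, 4 downward and 21 stayed within it (median 0.18, or −0.20 with spike-in centring). The highest were Cdh3 (P-cadherin, log2 2.89), Ildr1, an angulin of tricellular junctions (2.56), and Cgnl1 (paracingulin, 2.24). The lowest were Crb2, an apical polarity protein of neuroepithelium (−2.79), Pvrl3 (nectin-3, −1.49) and Jam3 (−1.35). Jup (plakoglobin), which joins desmosomal cadherins to the plaque, was higher by the median of 2 probes (1.42), and Perp, a further desmosome protein, differed by 0.59; both were picked after their values were seen.

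Of 25 epithelial regulators and companion genes, 23 were measured; 15 passed the limit upward and 1 downward (median 1.67, and 1.21 to 1.67 over all settings). The highest were Mal2, an apical transport protein (3.19), Sfn (14-3-3 sigma, 3.17) and Grhl2, a Grainyhead factor that activates claudin and E-cadherin genes (2.96). The lowest were Prom1, which neuroepithelium also carries (−1.39), Ovol2 (−0.25) and Tfap2a (−0.11), of which Ovol2 and Tfap2a turned positive under at least 1 setting. Ovol1 was well above background on neither array.

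Of 17 mesenchymal and EMT genes, all measured, 2 passed the limit upward and 6 downward (median −0.25). Vim (vimentin, −2.55), Zeb2 (−2.33) and Cdh2 (N-cadherin, −1.84), all of which neural progenitors express too, were the lowest. Thy1 (2.17), Fn1 (1.52) and Snai2 (0.24, negative with spike-in centring) were the highest. Zeb1, an E-box repressor of epithelial genes picked after its value was seen, was lower by the median of 3 probes (−1.35). With normexp the Zeb1 difference came within 2-fold, at −0.81. Snai1 (Snail), also an E-box repressor, stayed within 2-fold (−0.22).

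**Figure D4:**
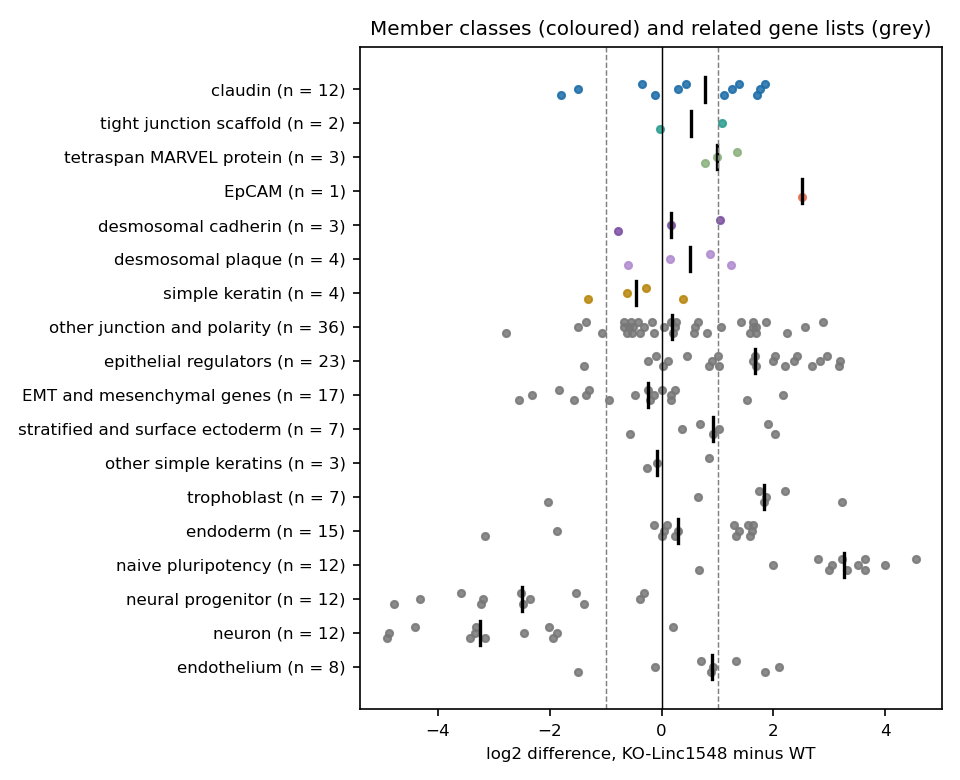
Log2 difference, KO-Linc1548 minus WT, of measured genes in the member classes (coloured) and in the related lists (grey), with the median as a black bar; n is the number of genes plotted, all measured on both arrays. Pluripotency genes (row labelled naive pluripotency) lie highest (median 3.27) and neuron genes lowest (−3.24), with the tight junction classes between them. The row labelled other simple keratins holds Krt80, Krt20 and Krt42.

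Several markers of other epithelia moved beside the members, and their part in the member differences was not tested. Of 12 trophoblast markers, 7 were measured, with 5 past the limit upward and 1 downward. The summed signal of all 12 was 1315 in the knockout, against 1094 in the wild type. Most of that wild type sum was Gata3, at 174 in the knockout against 715 in the wild type. Eomes (3.22), Cdx2 (2.21) and Plet1 (1.87) were the highest and Gata3 (−2.04), Tead4 (0.66) and Ascl2 (1.74) the lowest, while Elf5, Hand1 and Psg17 were well above background on neither array. Prl3d1 and Tpbpa were called on the wild type array alone. Of 16 endoderm markers, 7 passed the limit upward and 3 downward, with a summed signal of 40671 in the knockout, against 37851 in the wild type. Most of that wild type sum was Foxa2, at 5975 in the knockout against 21971 in the wild type. Cubn (1.63), Hnf4a (1.61) and Rhox5 (1.57) were the highest, and Foxa1 (−3.17) and Foxa2 (−1.88) the lowest. How much of the Foxa1 and Foxa2 signal came from endoderm was not tested.

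Of 12 stratified and surface ectoderm markers, 7 were measured, with 3 past the limit upward and 0 downward. The summed signal of all 12 was 1785 in the knockout, against 1639 in the wild type. Most of that wild type sum was Krt10, at 642 in the knockout against 952 in the wild type. Krt17 (2.02), Ppl (1.90) and Evpl (1.02) were the highest and Krt10 (−0.57), Lor (0.36) and Trp63 (0.68) the lowest. Krt5, Krt14 and Ivl were well above background on neither array. Krt15 exceeded background only in the wild type, at 9.29 in the knockout against 109 in the wild type, at least 3.59-fold lower. Krt1 was also called only there, and no fold is given. The further keratins Krt80 (0.84), Krt20 (−0.08) and Krt42 (−0.27) stayed within 2-fold, and Krt76 was not detected on either array. Among endothelial markers Tek (2.10), Vwf (1.85) and Egfl7 (1.34) were the highest and Sox18 (−1.498), Kdr (−0.11) and Esam (0.70) the lowest. Emcn was called on the wild type array alone, at 17.7 in the knockout against 86.0 in the wild type, at least 2.82-fold lower. Lor, Krt20, Krt42 and Kdr changed sign under at least 1 setting.

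Pluripotency genes, which embryonic stem cells share with part of the junction set, passed the limit upward for 11 of 12 (median 3.27). None passed it downward. Tdgf1 (4.54), Dppa2 (4.00) and Nr0b1 (3.63) were the highest and Nanog (0.66), Pou5f1 (1.99) and Tbx3 (2.80) the lowest. The 2 Nanog probes differed by −1.63 and 2.95. With the brightest probe or the stricter filter Nanog passed the limit upward, at 2.95. The summed signal of the 12 genes was 65879 in the knockout, against 8136 in the wild type. Neural progenitor genes summed to 10616 in the knockout, against 84655 in the wild type; Hes5 (−4.78), Nr2f1 (−4.33) and Pax6 (−3.58) were the lowest and Zic1 (−0.32), Notch1 (−0.38) and Prom1 the highest, of which Notch1 changed sign under at least 1 setting. Neuron genes passed the limit downward for 11 of 12 (median −3.24), with Isl1 (−4.92), Myt1 (−4.88) and Dcx (−4.41) the lowest and Stmn2 (0.21, negative with spike-in centring), Map2 (−1.87) and Tubb3 (−1.94) the highest.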

How the data were processed

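Total RNA of 1 KO-Linc1548 and 1 WT culture was hybridised to one-colour arrays; groups follow the genotype label. Spot intensity was deposited by the authors as Agilent Feature Extraction 10.7.1.1 output, background-subtracted and detrended within the array but with no scaling between arrays, per the file headers. Flags for background, saturation and outliers are other values deposited in the same files. Slide and scan time were shared by both arrays, per the file headers. Probe positions are on mm9.

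Outlier spots were left out, spots of a probe averaged as log2 values, and each array centred on its 75th percentile (652 for KO-Linc1548 and 864 for WT before centring). A probe counted as detected when a share of 0.5 or more of its spots was well above background and none was saturated. Genes follow the gene names in the files; the accession of 64 of the 74 member probes matched a RefSeq gene, with the same symbol each time. The limit of 2-fold stands in place of a test, and the number of arrays limits the precision. Members, lists, limit and alternatives were chosen with earlier results of these data known. Related lists name their 3 highest and 3 lowest genes; some genes are not reported here, though counts and medians include them. Alternatives used quantile, cyclic loess and spike-in scaling and normexp (limma 3.58.1), other filters on dim probes, the brightest probe and outlier spots kept. The steps were tested on simulated data made from the wild type signals and flags. Differences in flags between the arrays, and probes called on a single array, were therefore not covered.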

Additional observations from a re-analysis of the deposited data

How the results depend on the processing

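Counts of members past 2-fold depended on scaling and background correction. With spike-in centring (280 spike-in spots above background) 4 members passed the limit upward and 5 downward. With normexp 8 were higher and 1 was lower, beside 8.34% and 5.62% of all genes. With the stricter filter, a processed signal of at least 100 on both arrays, 8 were higher and 1 was lower among 22 genes. The shares of all genes were then 9.21% and 7.82%. Without the filter on dim probes 14 were higher and 4 lower among 49 genes, beside 12.2% and 7.86% of all genes. Under the other alternatives 11 to 13 were higher and 3 lower, beside 10.5% to 11.6% and 8.81% to 9.60% of all genes. Leaving out Cldn24, chosen after seeing the data, gave 11 higher and 3 lower. None of the 15 members past 2-fold changed sign. With spike-in centring the medians of the desmosomal cadherins (−0.21), other junction and polarity genes (−0.20) and endoderm markers (−0.12) were negative. These lists therefore have no settled direction, and the same holds for the 3 further keratins Krt80, Krt20 and Krt42, at 0.15 with normexp. Faint probes, with signals near the background limit, limit the values of Cldn10, Cldn15, Cldn18, Dsg1c and Pkp3. No paired analysis was possible because each group has 1 array, and for the same reason no array could be left out.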

Other observations

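Several pairs of related junction and polarity genes lay on opposite sides of 0, an observation made after the values were seen. Crb3, the Crumbs protein of most epithelia, was higher by the median of its 2 probes (log2 1.69), while Crb2 read 728 in the knockout, against 5021 in the wild type (−2.79). Llgl2 was higher over 3 probes (1.69) and its paralog Llgl1 lower with the 1 probe measured (−1.06, and −0.27 without the filter on dim probes). Among the junctional adhesion molecules, F11r (JAM-A) read 6639 in the knockout, against 2153 in the wild type (1.62), and Jam2 was higher (1.58), whereas Jam3 read 5034 in the knockout, against 12796 in the wild type (−1.35). Pvrl2 (nectin-2) was higher (1.06, or 0.68 with spike-in centring) and Pvrl3 (nectin-3) lower (−1.49, with probes from −2.69 to −0.51). The classical cadherins showed the same split: Cdh1 (E-cadherin) read 7827 in the knockout, against 2154 in the wild type (1.86), and Cdh2 was lower (−1.84). Each of these 11 genes kept its sign under every alternative run, and the pairs were not tested as pairs.

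Grainyhead factors were higher together: Grhl1 (1.64), Grhl2 (2.96) and Grhl3 (2.69) all stayed past 2-fold under every alternative run. The splicing regulators of epithelia Esrp1 (1.99) and Esrp2 (1.67), and the factors Klf5 (2.43) and Tfap2c (2.82), did so as well. These genes were picked after their values were seen.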
